A study of Mus musculus with 4 samples.

Results

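The genes described here encode the classical antigen presentation pathway of MHC class I and its checkpoint ligand PD-L1. They were chosen by name as 10 of the 53465 genes of a raw count table from B16-F10, a mouse melanoma line known for low class I. They comprise the heavy chains H2-K1 and H2-D1, the light chain B2m, the peptide transporter genes Tap1 and Tap2, the loading factor Tapbp, the immunoproteasome subunits Psmb8 and Psmb9, the class I transactivator Nlrc5, and Cd274, which encodes PD-L1. The study infused fluorescent B16-F10 cells into zebrafish and sequenced polyA RNA with a stranded kit. There were 2 libraries of cells that had extravasated and 2 of infused cells that had stayed out of extravasation, the control. Both groups carry the same cell line and the same medium, IMDM with 10% fetal bovine serum. The growth text of the labels describes isolation from the fish and culture of extravasated clusters for all 4 libraries, so the grouping follows the extravasation field. A number in the titles changes with the group and cannot be told apart from it. The labels do not name separate fish or cultures behind the libraries of a group, so p-values here reflect only the variation among these 4 samples, and that variation may be technical.

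MHC class I molecules display peptides from inside the cell to CD8 T cells. Proteasomes cut the peptides, the transporter associated with antigen processing carries them into the endoplasmic reticulum, and a loading complex places them on heavy chains paired with beta-2 microglobulin. Interferon gamma raises most of these genes through IRF1 and NLRC5, and it also raises PD-L1, which dampens T cells through PD-1. In B16 melanoma, class I is low at rest and can be induced by interferon.

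Class I promoters hold a compact control region in which NLRC5 acts with RFX, CREB/ATF and NF-Y factors on an X and a Y box. RefSeq promoter sequences (GRCm38.p6, from 250 bases before to 50 after the start) were found for 8 of the 10 genes, and the 5 shown are those on which the results turn. H2-K1 (chr17:34000284-34000583, minus strand) and H2-D1 (chr17:35262844-35263143, plus strand) are the pair of classical heavy chain genes. B2m (chr2:122147437-122147736, plus strand) is the most abundant gene of the group, Tap1 (chr17:34187306-34187605, plus strand) shares its start region with Psmb9, and Cd274 (chr19:29367188-29367487, plus strand) is the checkpoint gene. Capitals mark matches, on either strand, to ATTGG (Y box), TGACG (core of the X2 box), GAAA, any 2 bases and GAAA (ISRE, the interferon-stimulated response element), TTCNNNGAA (GAS, the STAT element) and GGG, any 2 bases and TTTCC (NF-kB).
H2-K1: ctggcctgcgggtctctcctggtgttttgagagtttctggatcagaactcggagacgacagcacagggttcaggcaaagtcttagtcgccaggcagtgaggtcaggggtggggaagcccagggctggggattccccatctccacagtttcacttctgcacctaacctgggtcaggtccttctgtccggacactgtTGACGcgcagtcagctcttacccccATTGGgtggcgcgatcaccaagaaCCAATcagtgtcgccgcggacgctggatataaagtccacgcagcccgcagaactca
H2-D1: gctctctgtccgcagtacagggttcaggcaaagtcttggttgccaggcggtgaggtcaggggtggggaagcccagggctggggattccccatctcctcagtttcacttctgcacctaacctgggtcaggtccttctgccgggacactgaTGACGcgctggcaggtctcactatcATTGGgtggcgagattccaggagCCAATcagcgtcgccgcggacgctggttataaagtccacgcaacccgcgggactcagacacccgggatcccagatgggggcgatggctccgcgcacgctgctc
B2m: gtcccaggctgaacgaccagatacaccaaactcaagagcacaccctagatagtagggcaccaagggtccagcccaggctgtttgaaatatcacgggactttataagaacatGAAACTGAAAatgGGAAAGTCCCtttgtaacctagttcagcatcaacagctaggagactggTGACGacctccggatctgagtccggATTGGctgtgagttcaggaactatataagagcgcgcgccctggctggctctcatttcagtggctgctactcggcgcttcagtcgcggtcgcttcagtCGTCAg
Tap1: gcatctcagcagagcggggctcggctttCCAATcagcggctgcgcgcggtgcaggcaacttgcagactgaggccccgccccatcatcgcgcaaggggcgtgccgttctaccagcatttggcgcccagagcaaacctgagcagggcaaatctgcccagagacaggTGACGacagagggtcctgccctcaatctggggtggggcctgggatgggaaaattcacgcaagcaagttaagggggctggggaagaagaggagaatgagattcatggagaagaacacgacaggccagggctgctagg
Cd274: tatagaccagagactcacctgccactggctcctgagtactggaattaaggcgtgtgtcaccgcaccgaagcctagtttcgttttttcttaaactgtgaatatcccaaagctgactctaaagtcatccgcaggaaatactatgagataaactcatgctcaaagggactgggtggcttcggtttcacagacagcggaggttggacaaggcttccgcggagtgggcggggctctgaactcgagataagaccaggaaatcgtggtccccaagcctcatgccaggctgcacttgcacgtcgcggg
The H2-K1 and H2-D1 windows matched at 225 of 253 aligned bases (88.9%), with an identical run of 47 bases. H2-K1, H2-D1, B2m and Tap1 each held both ATTGG and TGACG, which occurred in 37.4% and 20.8% of the 32851 promoter entries. Counted from the start, TGACG began at -55 in H2-K1, -101 in H2-D1 and -78 in B2m. ATTGG followed it there, at -30, -76 and -53. Tap1 had another order, with the match to ATTGG, on the other strand, at -222 and TGACG after it at -86. Of the 5 sequences shown, B2m also held the ISRE letters, found in 3.44% of entries, and the NF-kB letters, found in 1.63%. None of the 5 searched motifs was found in the Cd274 window. In any window, a motif not found says only that those letters are not in it, and variant sites were not searched. The Tap1 and Psmb9 windows face opposite ways and overlap by 275 bases.

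Library totals were 13256522 and 19674733 counts in the extravasated libraries and 11705904 and 16430477 in the libraries that had not extravasated. A count of 0 allows a level of up to 0.158 to 0.260 CPM (counts scaled to library size, per 1e6), taken as 3 counts per library, and this limit covers counting error only. The 7 pigment cell markers fit the label: their summed level was 30869 and 29869 CPM in the extravasated and 28853 and 23879 CPM in the not extravasated libraries. The sum hides markers that went different ways. By the test given below, before correction, Pmel and Sox10 were called higher in extravasated cells. Tyr and Mitf were called lower, with Mitf at 166 and 203 against 529 and 320 CPM. Mlana, Tyrp1 and Dct were not called. These calls changed with the GC and length correction given below. Tyr turned from -0.60 to 0.77 on the log2 scale and was called higher (edgeR, adjusted p = 0.0470). Mlana was called higher too (0.76, adjusted p = 0.0278). Pmel (0.42), Sox10 (0.28), Tyrp1 (0.43), Dct (0.32) and Mitf (-0.11) were not called after correction. Of 8 leukocyte and macrophage markers, 4 (Ptprc, Adgre1, Itgam and Cd14) were at 0 counts in every library, and the list summed to 5.37 and 4.89 CPM against 5.29 and 5.03 CPM, mostly Cd68. Of 7 lymphocyte markers 4 were at 0, with sums of 0.0756 and 0.316 CPM against 0.347 and 0.231 CPM. Endothelial markers summed to 15.3 and 15.3 CPM in extravasated libraries and 8.76 and 3.93 CPM in the others, with Cdh5, Kdr and Tek at 0 counts and Vwf giving most of the sum. Fibroblast markers summed to 11.3 and 10.8 CPM against 8.84 and 8.50 CPM, with Dcn, Lum and Thy1 at 0. Within that list, before correction, Col1a1 was called higher (0.83, edgeR, adjusted p = 0.0351) and Pdgfra lower (-1.46, adjusted p = 0.0221). Neither was called after correction. Epithelial markers summed to 1.13 and 1.21 CPM against 0.694 and 0.751 CPM, with Epcam, Krt8, Krt5 and Krt14 at 0. The host was zebrafish and the table counts mouse genes. Low values in the lists of other cell types therefore do not show whether host cells were present. The part of the marker lists in the results below was not tested.

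Among the 10 genes, H2-K1 and B2m were called lower in extravasated cells and no gene was called higher. The test was edgeR's quasi-likelihood test with Benjamini-Hochberg adjustment over all tested genes and a threshold of 0.05. In all, 8 of the 10 genes passed the filter on low counts, and Psmb8 and Psmb9 did not. Over all 12320 tested genes, 45.1% were called, 25.9% lower and 19.1% higher, and the 2 lower calls among 8 tested genes are a share near that background. In 3 of the 8 (H2-K1, B2m and Cd274) the extravasated libraries lay below both others without overlap, and in 1 (H2-D1) above both; over all tested genes the groups did not overlap in 76.3%, with extravasated lower in 39% and higher in 37.3%. Levels below are CPM scaled with TMM factors, and fold changes are extravasated over not extravasated. In such bulk libraries fewer cells of a type and less RNA per cell cannot be told apart.

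**Figure D1:**
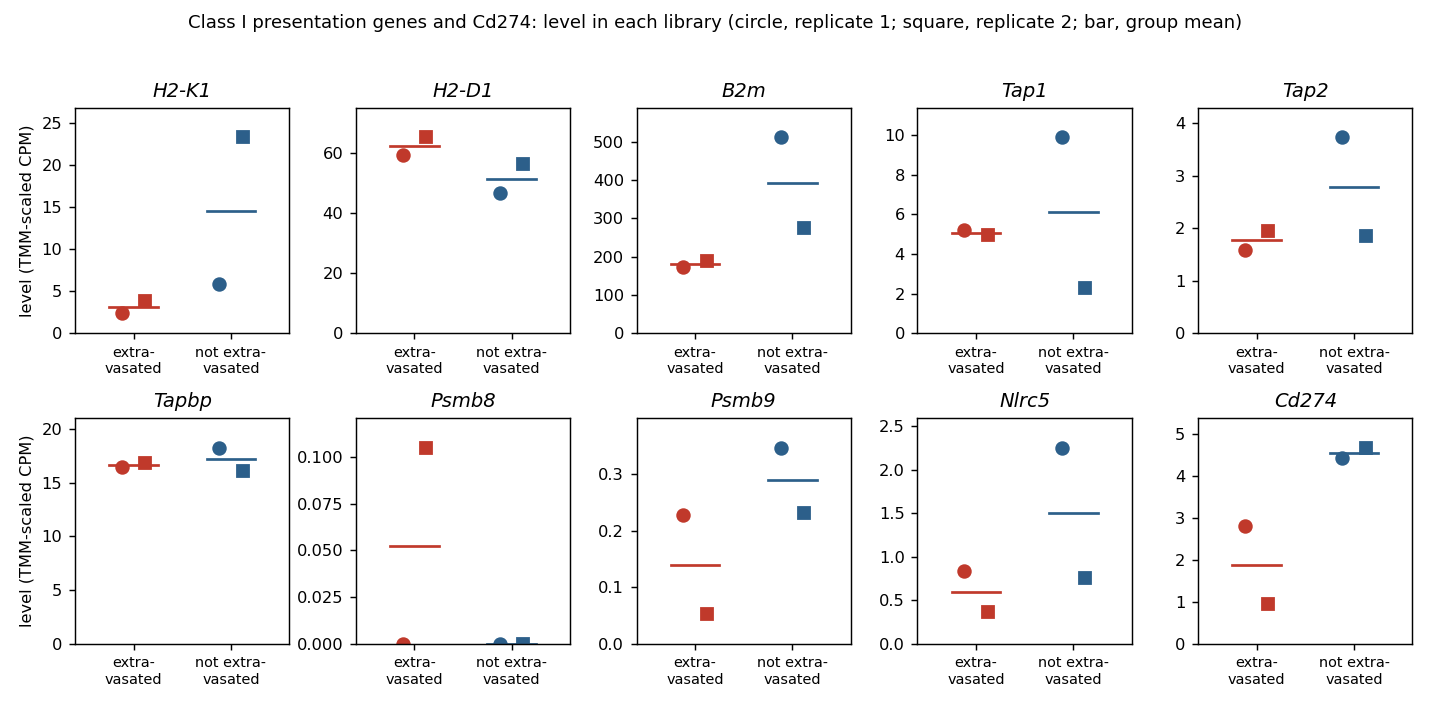
Level of each of the 10 genes in each library (TMM-scaled CPM, linear axes that start at 0 and differ between panels). Extravasated libraries are red and on the left, not extravasated libraries blue and on the right, with replicates 1 and 2 as circle and square and the group mean as a bar. Replicate numbers are only names within a group and pair no libraries across groups. H2-K1 stood at 23.4 CPM in not extravasated 2 and at 5.90 CPM or less in the other libraries, while Tap1, Tap2, B2m and Nlrc5 were highest in not extravasated 1.

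H2-K1 (ENSMUSG00000061232.15, chromosome 17, 33996017 to 34000347) encodes the classical H-2K heavy chain. It stood at 2.42 and 3.89 CPM in extravasated libraries (32 and 74 counts), against 5.90 and 23.4 CPM in not extravasated libraries (68 and 404 counts). The groups did not overlap, yet the 2 not extravasated libraries differed from each other 3.96-fold. The fold change was -2.21 ± 0.688 on the log2 scale (SE; edgeR, adjusted p = 0.0486), a 4.62-fold lower level in extravasated cells. Without not extravasated 2 it was -0.87 (adjusted p = 0.0418), and without not extravasated 1 it was -2.85 (adjusted p = 4.28e-19). Without extravasated 1 the value of -1.85 was not called (adjusted p = 0.25), nor was that of -2.59 without extravasated 2 (adjusted p = 0.197); such fits take the lone extravasated library to vary like the other group. With RLE factors in place of TMM the adjusted p was 0.0960, and a term for the kind of suffix in the titles gave 0.282. The direction was the same in all of these fits.

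H2-D1 (ENSMUSG00000073411.11, chromosome 17, 35262730 to 35267499) encodes the other classical heavy chain of this strain, H-2D. It stood at 59.1 and 65.1 CPM in extravasated libraries, against 46.5 and 56.2 CPM in not extravasated libraries. The groups lay close together without overlap, and the difference of 0.27 ± 0.152 on the log2 scale was not called (SE; edgeR, adjusted p = 0.176). It was called when not extravasated 2 was left out (0.43, adjusted p = 0.0465).

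In the mix of the heavy chains, H2-K1 made up 3.94% (95% Wilson interval 2.80 to 5.50) and 5.64% (4.52 to 7.02) of the counts of both genes in the extravasated libraries. In the not extravasated libraries it made up 11.3% (8.98 to 14.0) and 29.3% (27 to 31.8). All 4 intervals cover counting error only; those of the extravasated libraries overlap each other and lie below both others. An exact permutation test of the shares gave p = 0.333 (two-sided), the smallest value that 2 against 2 libraries allow. Both transcripts have nearly the same GC content, 56.3% and 55.9%. The sum of 18 class I heavy chain genes of the H2 family, of which 8 had any count, was 79.3 and 88.2 CPM in extravasated and 67.1 and 100.1 CPM in not extravasated libraries. Fitted as 1 row, its difference on the log2 scale was 0.00 ± 0.198 (SE; edgeR, adjusted p = 1), and the exact permutation p of the sum was 1. Of all windows of 50 bases in the H2-K1 transcript 8.79% also occur in transcripts of other genes, chiefly H2-D1. Of those of H2-D1 14.3% do, most often in H2-Q1 (7.40%), which had no count here. Counts of this pair are therefore uncertain where reads fell in shared stretches.

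**Figure D2:**
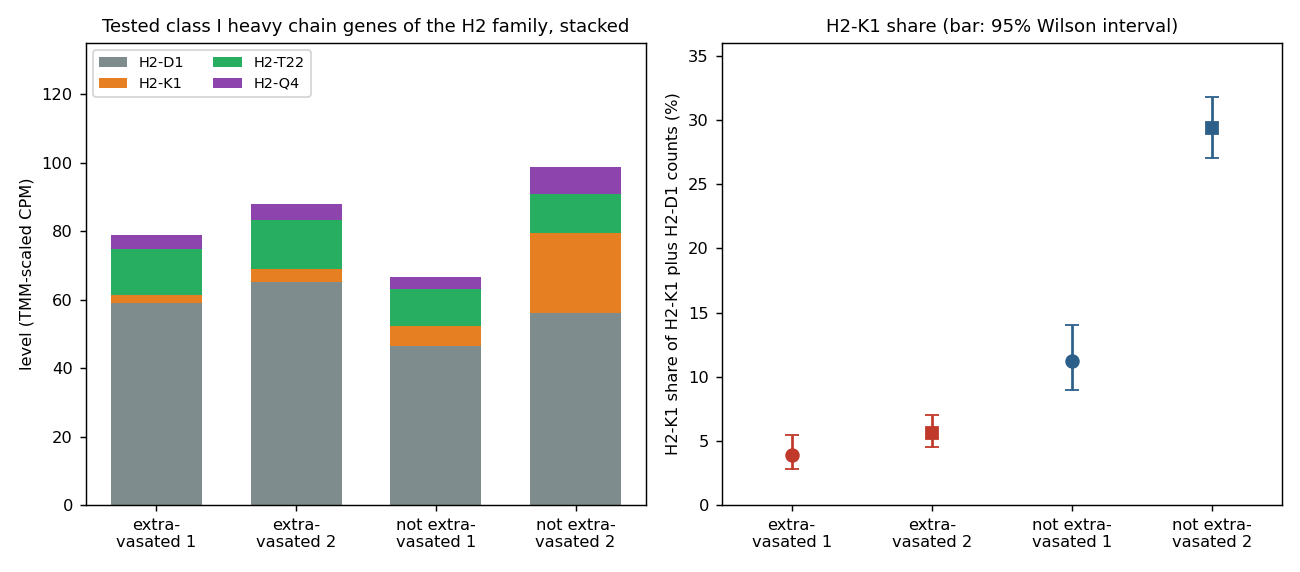
Left, stacked levels (TMM-scaled CPM) of the 4 tested class I heavy chain genes of the H2 family in each library. Right, the share of H2-K1 in the counts of H2-K1 plus H2-D1 (%), with 95% Wilson intervals, red for extravasated and blue for not extravasated libraries. The share was 3.94% and 5.64% in extravasated libraries and 11.3% and 29.3% in the others.

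B2m (ENSMUSG00000060802.8, chromosome 2, 122147686 to 122153083) encodes the light chain common to class I molecules. It stood at 174 and 189 CPM in extravasated libraries and at 511 and 274 CPM in not extravasated libraries. The extravasated libraries were close to each other and below both others, of which not extravasated 1 was 1.86-fold above not extravasated 2. The log2 fold change was -1.11 ± 0.298 (SE; edgeR, adjusted p = 0.0312), a 2.16-fold lower level. Without not extravasated 1 it was -0.60 (adjusted p = 0.000335), and neither the -0.95 without extravasated 1 nor the -1.12 without extravasated 2 was called (adjusted p = 0.169 and 0.155). With RLE factors the adjusted p was 0.0499. The B2m transcript is short (860 bases) and has a GC content of 41.2%, against a median of 50.4% over the tested nuclear coding genes, and the correction given below removed most of its difference.

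Tap1 and Tap2 encode both chains of the peptide transporter, and Tapbp encodes tapasin, which holds the transporter and the empty heavy chain together. Tap1 (ENSMUSG00000037321.17, chromosome 17, 34187553 to 34197225) stood at 5.22 and 4.94 CPM in extravasated libraries and at 9.88 and 2.31 CPM in not extravasated libraries. The extravasated values lay between the others, which differed 4.27-fold, and the log2 fold change was -0.23 ± 0.659 (SE; edgeR, adjusted p = 0.804). The call and direction of Tap1 depended on the control library: without not extravasated 1 the value was 1.13 (adjusted p = 0.0109), and without not extravasated 2 it was -0.96 (adjusted p = 0.00477). Tap2 (ENSMUSG00000024339.12, chromosome 17, 34203527 to 34216321) stood at 1.59 and 1.95 CPM in extravasated and at 3.73 and 1.85 CPM in not extravasated libraries. It overlapped between groups, with not extravasated 1 above the rest, and was not called (log2 fold change -0.62 ± 0.444, SE; edgeR, adjusted p = 0.287). Tapbp (ENSMUSG00000024308.14, chromosome 17, 33915899 to 33929292) had the smallest difference of the 8 tested genes, at 16.5 and 16.9 CPM in extravasated and 18.3 and 16.1 CPM in not extravasated libraries. Its log2 fold change was -0.04 ± 0.183 (SE; edgeR, adjusted p = 0.867). Tapbp shares 149 exonic bases with Zbtb22 on the same strand and Tap1 shares 212 with Psmb9 on the opposite strand. Larger overlaps lie on the opposite strand: Tapbp with Gm19412 (904 bases), Tap2 with Gm15821 (533), Cd274 with AC119228.1 (511) and Psmb8 with Gm20496 (498). How strand was set in the counting is not stated in the sources used here.

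Psmb8 and Psmb9 encode catalytic subunits that replace the constitutive Psmb5 and Psmb6 in the immunoproteasome. Psmb8 (ENSMUSG00000024338.14, chromosome 17, 34197721 to 34201454) had 0 and 2 counts in the extravasated libraries and 0 and 0 in the not extravasated libraries. Psmb9 (ENSMUSG00000096727.2, chromosome 17, 34181987 to 34187764) had 3 and 1 counts in extravasated and 4 and 4 in not extravasated libraries, with exact Poisson intervals from 0.0253 to 5.57 for the lowest and 1.09 to 10.2 for the highest. Neither gene can show a difference at this depth, and no fold is given. Psmb9, Tap1, Psmb8 and Tap2 lie side by side within 34.3 kb of chromosome 17, so genes with 21 to 114 counts a library alternate there with genes of 4 counts or fewer. The constitutive counterparts were abundant: per kilobase of transcript, Psmb5 had 45.8 and 54.1 CPM in extravasated and 25 and 23 CPM in not extravasated libraries, and Psmb6 had 324 and 374 CPM against 196 and 204 CPM. Psmb8 had 0 and 0.0646 CPM per kilobase in extravasated libraries and 0 in both others. Psmb10, the immunoproteasome counterpart of Psmb7, was well above the floor, with 23.7 and 23.9 CPM in extravasated and 13.8 and 10.4 CPM in not extravasated libraries. It rose by 0.98 ± 0.203 on the log2 scale (SE; edgeR, adjusted p = 0.00743), and was not called without extravasated 2 (1.02, adjusted p = 0.0553) or after correction (0.43, adjusted p = 0.163).

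Nlrc5 (ENSMUSG00000074151.13, chromosome 8, 94434356 to 94527272), the transactivator of class I genes, had 11 and 7 counts in extravasated and 26 and 13 counts in not extravasated libraries. As levels these were 0.832 and 0.368 CPM against 2.25 and 0.751 CPM, so extravasated 1 lay above not extravasated 2 and the groups overlapped. The log2 fold change was -1.31 ± 0.693 and not called (SE; edgeR, adjusted p = 0.157). It was -1.96 and called without not extravasated 2 (adjusted p = 0.0109), and -0.39 without not extravasated 1 (adjusted p = 0.721). Nlrc5 passed the filter, a CPM of 0.674, in 1 extravasated and 2 not extravasated libraries.

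Cd274 (ENSMUSG00000016496.7, chromosome 19, 29367455 to 29388095) encodes PD-L1. It stood at 2.80 and 0.947 CPM in extravasated libraries, from 37 and 18 counts, and at 4.42 and 4.68 CPM in not extravasated libraries, from 51 and 81 counts. Here the controls were close together and the extravasated libraries, both lower, differed from each other. The difference of -1.33 ± 0.496 on the log2 scale missed the threshold (SE; edgeR, adjusted p = 0.0626). The call varied with the fit: the adjusted p was 0.0480 with RLE factors, 0.00718 with the title suffix term and 0.00490 with no expression filter. Leaving out extravasated 1 gave -2.16 (adjusted p = 0.0278), and leaving out extravasated 2 gave -0.66 (adjusted p = 0.311). Without not extravasated 1 or 2 it was called, with -1.38 and -1.29 (adjusted p = 0.00508 and 0.0108).

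Compared per kilobase of transcript, B2m was the most abundant of the 10 genes in every library, with 203 and 219 CPM per kilobase in extravasated and 594 and 319 in not extravasated libraries. H2-D1 followed with 28.1 and 31.0 against 22.1 and 26.8 CPM per kilobase, and Tapbp with 5.69 and 5.83 against 6.31 and 5.56. H2-K1 had 1.49 and 2.40 CPM per kilobase in extravasated libraries, below Tapbp, and 3.64 and 14.4 in not extravasated libraries, so that in not extravasated 2 it stood above Tapbp. Tap1 (1.77 and 1.67 against 3.35 and 0.783 CPM per kilobase) overlapped with H2-K1 in that order. Cd274 had 0.773 and 0.261 CPM per kilobase against 1.22 and 1.29, Tap2 had 0.461 and 0.565 against 1.08 and 0.537, and the 2 neighbours in rank overlapped. Nlrc5 had 0.12 and 0.0530 CPM per kilobase against 0.325 and 0.108, and Psmb9 had 0.168 and 0.0389 against 0.257 and 0.171, also overlapping. These orders compare transcripts of different GC content, which moved with the groups as described next.

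**Figure D3:**
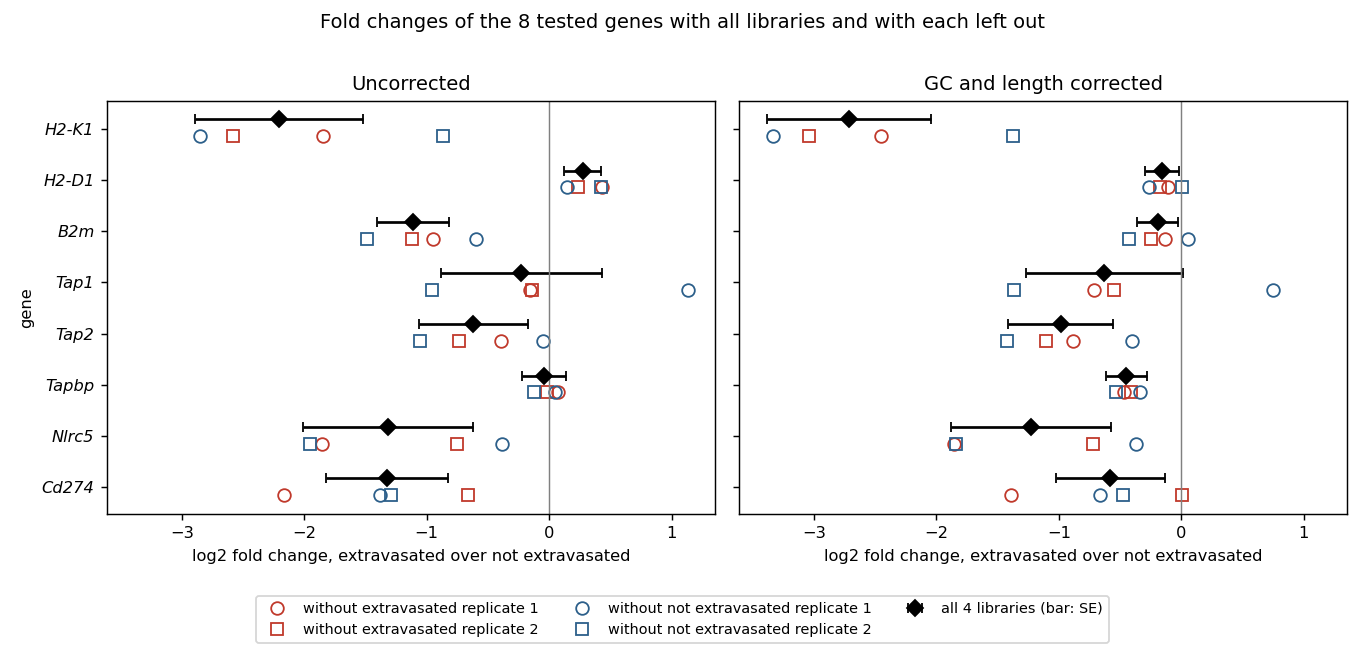
Log2 fold changes (extravasated over not extravasated) of the 8 tested genes, uncorrected on the left and corrected for transcript GC content and length on the right. Diamonds are fits with all 4 libraries with their SE, and open symbols are fits with 1 library left out. Tap1 ranged from -0.96 to 1.13 uncorrected, H2-K1 from -2.85 to -0.87, and H2-D1 from 0.14 to 0.43.

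Fold changes in this series followed the GC content of the transcripts. Across 11126 tested nuclear coding genes, the Spearman rho of fold change with GC content was 0.743. This describes the spread over genes, and genes are no replicates of a condition. The 7 genes on chromosome 17 have GC contents between 55.3% and 57.3%, Nlrc5 52.9%, Cd274 44.9% and B2m 41.2%. Among the 625 genes within 1 percentage point of the GC content of B2m the median log2 fold change was -1.26 and 98.4% were below 0, and for the 1011 genes around Cd274 these were -0.72 and 89.8%. Around H2-K1, by contrast, the median of 1082 genes was 0.45 and 16.9% were below 0, and around Nlrc5 the median of 1198 genes was 0.28. The part of GC content in these results was not tested beyond the correction given next. After a per-library correction for GC content and length, 14% of all tested genes were called, 5.8% lower and 8.24% higher, and rho was 0.01. None of the 8 tested genes was called by edgeR after correction; 2 of them, H2-K1 and Tapbp, had an unadjusted p under 0.05, and DESeq2, run without correction, called 2, H2-K1 and B2m, both lower, where it called 42.3% of all tested genes and 24.2% lower. H2-K1 moved away from 0, to -2.71 ± 0.67 (SE; edgeR, adjusted p = 0.0531). B2m moved toward 0, to -0.19 ± 0.166 (adjusted p = 0.459), since the smooth assigned it -0.46 and -0.42 in extravasated and 0.64 and 0.23 in not extravasated libraries on the log2 scale. Cd274 moved to -0.58 (adjusted p = 0.410), Tap2 to -0.98 (adjusted p = 0.157), Tapbp to -0.45 (adjusted p = 0.113), Tap1 to -0.63 (adjusted p = 0.544) and Nlrc5 to -1.23 (adjusted p = 0.233). H2-D1 turned to -0.16 (adjusted p = 0.469). With correction and without not extravasated 2, H2-K1 (-1.37), B2m (-0.42), Tap1 (-1.37) and Tap2 (-1.43) were called lower. Without not extravasated 1 H2-K1 was (-3.33), and without extravasated 1 or 2 no member was.

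**Figure D4:**
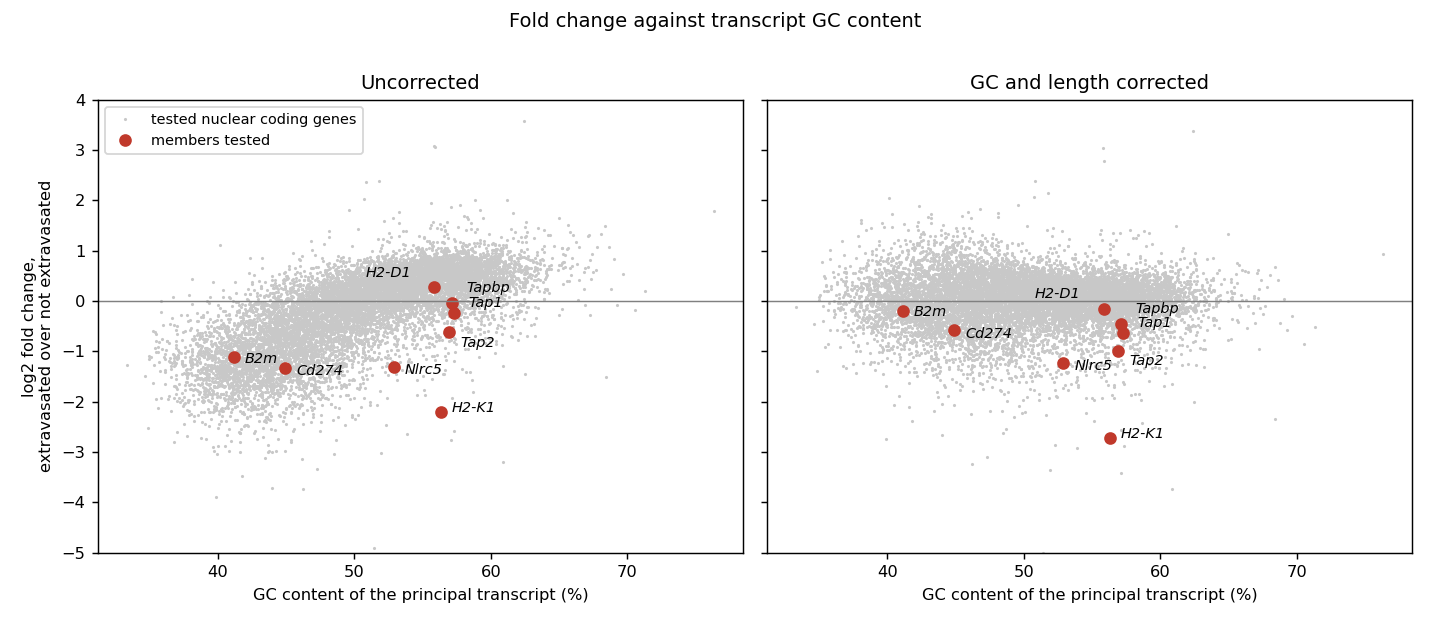
Log2 fold change against GC content of the principal transcript (%), uncorrected on the left and corrected for GC content and length on the right. Grey points are 11126 tested nuclear coding genes and red points the 8 tested genes of the class I and PD-L1 group. H2-K1, at 56.3% GC, lies below nearly every gene of like GC content in both panels (-2.21 and -2.71), and B2m, at 41.2% GC, lies amid genes of like GC content (-1.11 and -0.19).

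Further genes of the pathway were taken from fixed lists, and their counts stand beside the 25.9% lower and 19.1% higher calls over all tested genes. Of 21 non-classical and class I-like heavy chain genes 10 had no count and 7 were tested, of which 1 fell and none of the 7 rose. It was Mr1, which presents vitamin B metabolites to MAIT cells, with 11.7 and 9.47 CPM in extravasated and 32.9 and 28.5 CPM in not extravasated libraries. It fell by 1.54 ± 0.196 on the log2 scale (SE; edgeR, adjusted p = 0.00147), and it was called after correction (-0.76, adjusted p = 0.0245) and, before correction, without each library in turn. With correction it was not called without extravasated 1 (adjusted p = 0.135) or 2 (adjusted p = 0.241). H2-T22 stood at 13.4 and 14.2 CPM in extravasated and 10.8 and 11.2 CPM in not extravasated libraries (adjusted p = 0.203). H2-Q4 was highest in not extravasated 2, as H2-K1 was, with 4.16 and 4.79 CPM against 3.47 and 8.03 CPM (adjusted p = 0.475). For Cd1d1, which presents lipids, the value was 0.44 (adjusted p = 0.621).

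Of 8 further loading and trimming genes 5 fell and none of the 8 rose; the list's median was -0.66 on the log2 scale, against -0.02 over all tested genes. Erap1, which trims peptides in the endoplasmic reticulum, stood at 4.08 and 3.16 CPM in extravasated and 15.8 and 8.15 CPM in not extravasated libraries (log2 fold change -1.72, adjusted p = 0.00898). The others were Lnpep, a related aminopeptidase (-2.28), the lectin chaperone Canx (-1.15), Pdia3 of the loading complex (-0.73) and Hspa5 (-0.58), whose value turned to 0.11 after correction. Calr, a soluble lectin chaperone of the same complex, was not called (0.22, adjusted p = 0.131). After correction no gene of the list was called and the median was -0.05; without extravasated 2 the uncorrected number that fell was 1. Beside Psmb10, the activator subunits Psme1 and Psme2 had values of -0.13 and 0.18, not called, and after correction Psme1 fell (-0.67, adjusted p = 0.0353). Among 5 constitutive counterparts, Psmb5 (1.06) and Psmb6 (0.80) rose, Psme4 fell (-1.47), and Psmb7 was not called (0.32, adjusted p = 0.0596). None of the 5 was called after correction.

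Of 10 factors that act on class I promoters 2 rose and 3 fell. Rela (0.49), the NF-kB subunit, and Nfyc (0.53), an NF-Y subunit, were higher, and Nfyb (-1.23), Atf1 (-1.03) and Creb1 (-1.38) were lower. None of the 10 was called after correction, and without extravasated 2 none of them rose and 2 fell. Of 17 genes of interferon receptors and signalling 2 rose and 5 fell. Jak2, a kinase of the interferon gamma receptor, stood at 12.3 and 13.9 CPM in extravasated and 38.6 and 41.0 CPM in not extravasated libraries (-1.60, adjusted p = 0.000862). Jak1 (-0.95), Stat3 (-0.50) and the phosphatase Ptpn2 (-1.17) fell too, and Tyk2 (0.48) and Ptpn1 (0.59) rose. Irf1, an activator of class I genes, was not called (-0.31, adjusted p = 0.249). Without extravasated 2 none of the 17 rose and 3 fell, without extravasated 1 it was 1 and 4, and without not extravasated 1 it was 2 and 7. After correction 1 gene of the list, Stat3, was called (-0.57, adjusted p = 0.0337).

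Genes of the polycomb complex PRC2 and its partners, which can silence class I genes, fell in 6 of 8 cases, and none of the 8 rose. Ezh2, the methyltransferase, stood at 125 and 95.9 CPM in extravasated and 250 and 254 CPM in not extravasated libraries (log2 fold change -1.19, adjusted p = 0.00149). Suz12 (-1.60), Mtf2 (-1.76), Eed (-0.68), Jarid2 (-1.25) and Rbbp7 (-0.60) were the others, and Rbbp7 turned to 0.11 after correction. The list's median was -0.94, and -0.40 after correction, when none of the 8 fell and Rbbp4 rose (1.13, adjusted p = 0.0073). Without extravasated 2 the uncorrected number that fell was 3.

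Of 13 partners and regulators of PD-L1, 12 were tested, 4 rose and 4 fell. Cmtm6, which keeps PD-L1 at the cell surface, stood at 18.5 and 18.3 CPM in extravasated and 16.3 and 22.6 CPM in not extravasated libraries and was not called (-0.09, adjusted p = 0.755; 0.02 after correction). Hip1r, which directs PD-L1 to lysosomes in human cells, rose (0.80, adjusted p = 0.00709), also after correction (0.67, adjusted p = 0.0254), and was not called without extravasated 2 (0.73, adjusted p = 0.0699). Cdk4 (0.51), Cdk5 (0.51) and Stub1 (0.56) rose, and Gsk3b (-1.16), Csnk1a1 (-0.57), Spop (-0.55) and Btrc (-0.46) fell. After correction 3 were higher, Hip1r, Cmtm4 (0.65) and Cops5 (0.54), and 1, Btrc (-0.61), was lower. Without extravasated 2 the uncorrected list held no rise and 1 fall. Of 14 other checkpoint ligands 7 were tested, and Cd47, the signal against phagocytosis, fell (-0.82, adjusted p = 0.0258). Its adjusted p was 0.0809 without extravasated 1, 0.228 without extravasated 2, 0.0501 without not extravasated 2 and 0.147 after correction. Nectin2 (0.46), Lgals3 (1.0) and Nectin3 (-0.45) were not called; Lgals3, like Tap1, differed between the control libraries, with 347 and 360 CPM in extravasated and 283 and 70.9 CPM in not extravasated libraries. After correction Nectin3 turned to 0.55 (adjusted p = 0.0402). Of 8 class II genes 1, H2-DMa, was tested and not called (0.33, adjusted p = 0.705), and H2-Aa, H2-Ab1 and H2-Ob had no count.

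**Figure D5:**
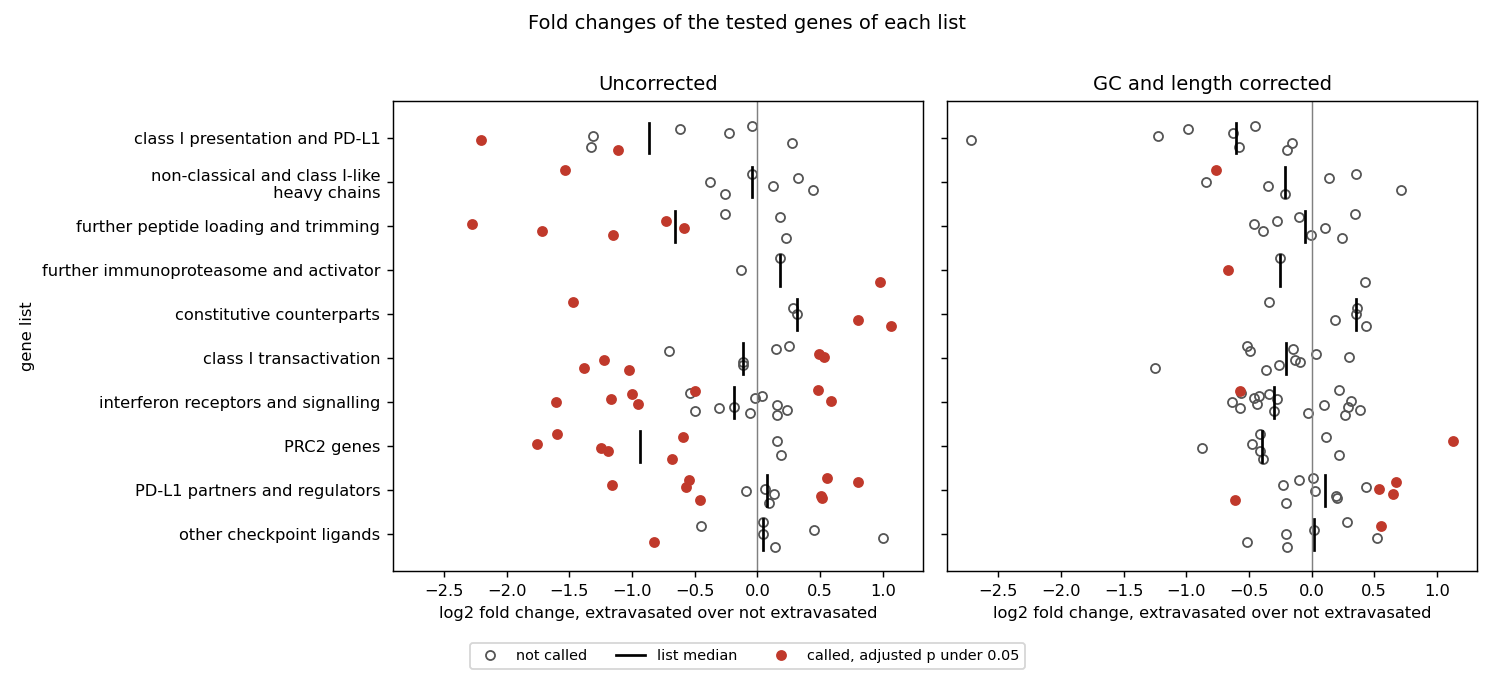
Log2 fold changes (extravasated over not extravasated) of the tested genes of each list, uncorrected on the left and corrected for transcript GC content and length on the right. Filled red points were called at an adjusted p under 0.05, open points were not, and black bars are list medians. The median of the further loading and trimming genes was -0.66 uncorrected and -0.05 corrected, and that of the PRC2 genes -0.94 and -0.40.

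By profile over the 4 libraries, measured as Euclidean distance of centred log2 CPM, the 3 tested genes nearest to H2-K1 were Epm2a (0.363), Nupr1 (0.527) and Nfkbiz (0.562). Nearest to B2m were Lztfl1 (0.0388), Zfp54 (0.0473) and Nabp1 (0.0736), and nearest to H2-D1 was Axl (0.0128). Cdh6 was nearest to Tap1 (0.211), Vgll3 to Tap2 (0.0751), Mis18a to Tapbp (0.0250), Gm5546 to Nlrc5 (0.196) and Armcx5 to Cd274 (0.180). With 4 libraries these distances are descriptions of likeness and no other gene of the class I and PD-L1 group was among the 3 nearest of any member.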

How the data were processed

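PolyA RNA of 4 libraries was sequenced. The deposited table holds unnormalized counts as the authors left them. The submitters' processing notes name STAR 2.5.3a, bcl2fastq 2.18.0.12 and GRCm38. Counter, annotation and strand setting: not given in the sources used here. Identifiers were matched to GENCODE M21 (GRCm38), with 53360 of 53465 matched.

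Counts were tested with edgeR 4.0.16 (R 4.3.3): filterByExpr (a minimum count of 10 and a total of 15), TMM scaling, a robust two-sided quasi-likelihood test without covariates, Benjamini-Hochberg adjustment over 12320 genes. SE was the fold change divided by the square root of F. The correction smoothed each library's deviation of log2 CPM (prior count 2) on GC content and log2 length of the principal transcript (mgcv 1.9.3 with 10 basis functions), and the fitted value served as edgeR's offset. Alternatives were RLE factors, library totals, DESeq2 1.42.0, other filters, the longest transcript, a term for the kind of title suffix, and leaving out each library. No table column was left unused.

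The code was tested on simulated data: of genes changed 1.5-fold 24.1% were recovered, of those changed 2-fold 62.9% and of those changed 4-fold 93.8%, among 12320 genes of this comparison in 3 simulations. The simulated counts held no trend with GC content and far fewer changed genes than were called here. These rates may therefore not carry over to the real libraries. The members, lists, tests and alternatives were chosen with earlier results of these data known. Beside the members, the rule for named genes took up to 4 tested genes per list with the smallest p; other list genes were named after their values were seen, and 1 gene that the rule took is not reported here.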

Additional observations from a re-analysis of the deposited data

How the results depend on the processing

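Which genes were called depended on which libraries entered and on the GC correction, and the cause was not tested. Over all tested genes 5551 were called, against 1729 with the correction and 1669 with the longest transcript in it; leaving out each library gave 1874 (without extravasated 2) to 6251, and with correction 136, 2, 3566 and 2347 (without extravasated 1 and 2, then not extravasated 1 and 2). Of the 8 tested members 2 were called, 0 with either correction, 0 to 6 with a library left out, and with both 0, 0, 1 and 4 in the same order. The summed heavy chain level was 0.00 (log2 ratio), -0.42 with the longest-transcript correction, -0.26 to 0.33 with a library left out and -0.65 to -0.06 with both; filters and the suffix term give no value for it. Among the members and the genes that the naming rule took, signs turned under correction (principal, then longest transcript) for H2-D1 (-0.16, -0.18), Csnk1a1 (0.44, 0.41), H2-DMa (-0.17, -0.098), Nectin3 (0.55, 0.60) and Psme2 (-0.26, -0.29), and with the longest transcript alone for Cd47 (0.34) and Nectin2 (-0.0024). With a library left out, values that turned ranged for Tap1 from -0.96 to 1.13, Tapbp from -0.13 to 0.072, Cd1d1 from -0.14 to 0.55, H2-DMa from -0.69 to 0.95, H2-Q4 from -0.84 to 0.38 and Psme1 from -0.26 to 0.11. With correction, the values that turned without extravasated 1 were those of Canx (0.12), Csnk1a1 (0.31), H2-D1 (-0.11), Nectin3 (0.61) and Psme2 (-0.16). Without extravasated 2 they were Cd274 (0.0030), Csnk1a1 (0.58), H2-D1 (-0.17), H2-DMa (-1.15), Nectin3 (0.50), Nfyb (0.20) and Psme2 (-0.33). Without not extravasated 1 they were B2m (0.054), Csnk1a1 (0.35), H2-D1 (-0.26), Nectin2 (-0.13), Nectin3 (0.63), Psme2 (-0.31) and Tap1 (0.75). Without not extravasated 2 they were Canx (0.021), Csnk1a1 (0.55), H2-DMa (-0.62), Lgals3 (-0.16), Nectin3 (0.49), Nfyb (0.074), Psme2 (-0.19) and Rela (-0.010). Of the further list and marker genes named, Tyr (0.77), Tyrp1 (0.43), Hspa5 (0.11), Rbbp7 (0.11) and Cmtm6 (0.02) turned with the principal transcript. It is the one alternative given for them. No paired analysis was possible because the labels give no replicate numbers. The kind of title suffix was shared by extravasated 2 and not extravasated 1, and by extravasated 1 and not extravasated 2. It was instead fitted as an additive term, and this fit called 6165 genes and 2 members, B2m and Cd274. Depth limits Psmb8, Psmb9 and Nlrc5, whose counts per library were at most 2, 4 and 26.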
